A study of Mus musculus with 6 samples.

Results

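Small nucleolar RNA (snoRNA) host genes were taken as the rows of the authors' comparison that name a single gene and carry the symbol Gas5, Epb4.1l4aos or Snhg with a number. The rule found 11 genes among 12234 single-symbol rows: Gas5, Snhg1, Snhg3, Snhg4, Snhg5, Snhg6, Snhg7, Snhg8, Snhg9, Snhg10 and Snhg12. No row carried the symbol Epb4.1l4aos, but a row under its older symbol, 2410004N09Rik, is described with the hosts outside the rule.

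The cells were neural stem cells of CD-1 mouse embryos at stage E14.5, bought from a supplier and grown as a monolayer on laminin with EGF and bFGF. All of them carried a lentiviral short hairpin RNA (shRNA) and were selected with puromycin at 0.5 µg/mL, the controls too. Of the 6 libraries of poly(A) RNA, 2 came from cells with a scrambled hairpin and 2 from cells with each of the hairpins called Sox4 shRNA 1 and Sox4 shRNA 2, numbered by passage. The authors' table gives 1 level for each of a pair of conditions that it does not name, so a "higher" or "lower" gene is higher or lower in the second condition.

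A host gene is transcribed as a long RNA whose introns hold snoRNAs. After splicing, the introns are trimmed to snoRNAs, which guide the chemical modification of ribosomal RNA and of the RNAs of the spliceosome: box C/D snoRNAs guide ribose methylation and box H/ACA snoRNAs guide pseudouridylation. Many snoRNAs of mammals lie in protein-coding genes, among them genes for ribosomal proteins and translation factors, but the Snhg genes and Gas5 code for no known protein in their exons. Their spliced RNAs, Gas5 above all, are known to be broken down during translation by nonsense-mediated decay, and many begin with a pyrimidine tract that ties their translation to growth signals.

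The hosts differ in how many small RNAs they carry. RefSeq places 31 small RNAs within the 11 genes, 8 each in Gas5 and Snhg1, 4 in Snhg12, 2 each in Snhg3, Snhg5 and Snhg7, and 1 in each of the others. Snhg10 holds Scarna13, a small RNA of Cajal bodies. To show what these genes hold, 1 small RNA is printed for each of Snhg8 and Snhg12, the hosts with the lowest log2 folds, and for Gas5. For Snhg5 a near-identical pair is printed. All were taken from GENCODE M21 (GRCm38), by position within the gene. Capitals mark the boxes found by searching the printed strand: for C/D, TGATGA toward the 5′ end and CTGA toward the 3′ end, and for H/ACA, ANANNA near the middle and ACA near the 3′ end. Of 33 GENCODE entries searched, 17 held the C/D pair, 9 the H/ACA pair and 7 neither. Snora74a of Snhg4 was not searched.
Snora24 (Snhg8, chr3:123507937-123508066, minus strand): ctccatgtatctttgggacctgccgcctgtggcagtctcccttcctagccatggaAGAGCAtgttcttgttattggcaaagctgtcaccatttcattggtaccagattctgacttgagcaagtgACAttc
Snord99 (Snhg12, chr4:132310691-132310764, plus strand): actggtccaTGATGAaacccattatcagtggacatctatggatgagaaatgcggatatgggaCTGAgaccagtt
Snord47 (Gas5, chr1:161038082-161038158, plus strand): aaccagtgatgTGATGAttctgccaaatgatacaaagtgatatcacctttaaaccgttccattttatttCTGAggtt
Snord50a (Snhg5, chr9:88521529-88521600, minus strand): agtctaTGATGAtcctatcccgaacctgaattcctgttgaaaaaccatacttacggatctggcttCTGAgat
Snord50b (Snhg5, chr9:88521797-88521868, minus strand): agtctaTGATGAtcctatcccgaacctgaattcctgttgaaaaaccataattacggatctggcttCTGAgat
Snord50a and Snord50b differ at 1 of 72 positions, and Snora73a and Snora73b of Snhg3 at 7 of 205.

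The starts of the host genes are printed because such genes are known for a pyrimidine tract there. RefSeq windows on GRCm38.p6 matched 9 of the 11 hosts, all but Snhg4 and Snhg6. The lines, for 5 of these hosts, give 20 bases before the annotated start and 20 from it on, with the unbroken run of pyrimidines from the start in capitals.
Snhg8 (chr3:123508317-123508356, minus strand): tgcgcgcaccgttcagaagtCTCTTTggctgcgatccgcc
Snhg12 (chr4:132308658-132308697, plus strand): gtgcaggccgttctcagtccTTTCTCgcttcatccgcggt
Snhg7 (chr2:26640225-26640264, minus strand): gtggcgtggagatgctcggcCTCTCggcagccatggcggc
Snhg1 (chr19:8723467-8723506, plus strand): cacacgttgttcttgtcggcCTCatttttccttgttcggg
Gas5 (chr1:161034581-161034620, plus strand): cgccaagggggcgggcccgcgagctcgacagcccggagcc
A C at the annotated start followed by at least 4 pyrimidines was found in 2 of the 9 hosts, Snhg7 and Snhg8, against 2.35% of 9481 genes of the table with a window. Among ribosomal protein genes of the table it was found in 12 of 60. The annotated start of 5 hosts is a purine, G in Gas5 and in Snhg3, Snhg5, Snhg9 and Snhg10, which are not printed. The printed lines thus hold every host that starts with a pyrimidine. These letters describe the annotated starts, which may differ from those used in these cells.

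None of the 11 host genes was called by the authors' Cuffdiff test, the flag that marks a q-value under 0.05. Over all single-symbol rows of the authors' deposited table, 5% were called, 3.16% higher and 1.84% lower, so 0 of 11 is near this background. Among the 8918 rows in the hosts' range of higher levels, 4.93% were called, 3.42% higher and 1.51% lower. At an unadjusted p under 0.05, Cuffdiff gave 2 hosts, Snhg8 and Snhg12, both lower, while 7.57% of all rows were lower and 9.96% higher at that p. In the hosts' range of levels these shares were 6.51% and 10.4%. Of the 11 log2 folds, 7 were negative and 4 positive, with a median of -0.30 beside 0.0032 for all single-symbol rows. The levels are taken as FPKM, which scales fragments by transcript length and sequencing depth, because Cuffdiff writes FPKM in columns of these names. The table holds no value per library, so no standard deviation, n or depth goes with a level. In such bulk RNA, fewer cells of a type and less RNA per cell cannot be told apart.

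**Figure D1:**
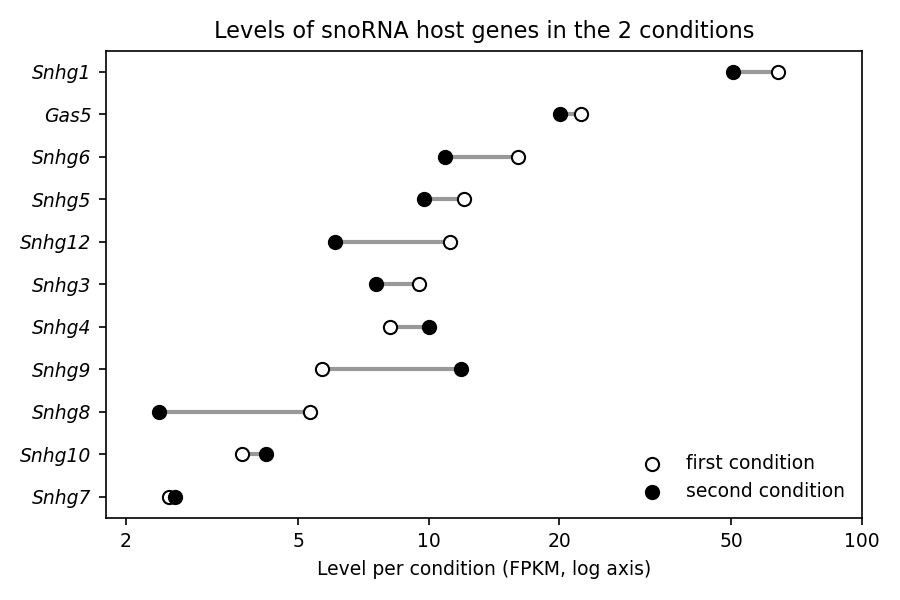
Level of each of the 11 host genes in the first (open) and second (filled) condition, in FPKM on a log axis, ordered by the level in the first condition. Snhg8, Snhg12 and Snhg9 show the widest gaps between conditions, and none of the 11 differences was called.

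Snhg1 and Gas5, which carry the most snoRNAs, were also the most abundant hosts. Snhg1, described early as the host of U22, had levels of 63.95 and 50.5 FPKM in the authors' deposited table (log2 fold -0.34, Cuffdiff q = 0.506). Gas5, a gene found through its high RNA level in growth-arrested cells, stood at 22.5 and 20.1 FPKM in the authors' deposited table (log2 fold -0.16, Cuffdiff q = 0.764). The 2 conditions differed by 1.27-fold for Snhg1 and by less for Gas5, and neither difference was called. RefSeq places Gas5 on the plus strand of chromosome 1, from 161034601 to 161038539 (GRCm38.p6).

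The lowest log2 folds belonged to Snhg8 and Snhg12. Snhg8, the host of Snora24, went from 5.32 to 2.39 FPKM in the authors' deposited table, 2.23-fold lower. For this log2 fold of -1.16 the authors' deposited table gives an unadjusted p of 0.0073 and a q of 0.108, by Cuffdiff. Only 1.26% of single-symbol rows had a lower log2 fold than Snhg8, and it was still not called. Snhg12, with 3 H/ACA RNAs and Snord99, stood at 11.2 and 6.07 FPKM in the authors' deposited table. For this log2 fold of -0.88 the authors' deposited table gives an unadjusted p of 0.0148 and a q of 0.159, by Cuffdiff. Snhg8 lies on chromosome 3 and Snhg12 on chromosome 4, like Snhg3.

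The other C/D hosts were lower by smaller amounts. Snhg6, the host of Snord87, stood at 16.1 and 10.9 FPKM in the authors' deposited table (log2 fold -0.56, Cuffdiff q = 0.512). Of its annotated exon bases, 11.1% overlap exons of Mcmdc2 on the other strand. Snhg5, the host of the U50 snoRNAs, stood at 12.04 and 9.77 FPKM in the authors' deposited table (log2 fold -0.30, Cuffdiff q = 0.639). Neither difference was called, and Snhg6 came next after Snhg8 and Snhg12 in the order of log2 folds.

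The H/ACA hosts had folds of both signs. Snhg3, the host of the U17 RNAs, which act in the cleavage of ribosomal precursor RNA, stood at 9.49 and 7.54 FPKM in the authors' deposited table (log2 fold -0.33, Cuffdiff q = 0.764). It shares 13.7% of its exon bases with Rcc1 on the same strand, where reads cannot be assigned by strand, and 71.5% with Gm17300 on the other strand. Rcc1 stood at 54.8 and 71.4 FPKM in the authors' deposited table (log2 fold 0.38, Cuffdiff q = 0.261), opposite in sign to Snhg3. Snhg7, the host of Snora43 and Snora17, stood at 2.51 and 2.59 FPKM in the authors' deposited table, the lowest of the 11 in the first condition (log2 fold 0.04, Cuffdiff q = 0.983). Snhg4, the host of Snora74a, stood at 8.13 and 10.01 FPKM in the authors' deposited table (log2 fold 0.30, Cuffdiff q = 0.644). Snhg10 stood at 3.72 and 4.22 FPKM in the authors' deposited table (log2 fold 0.18, Cuffdiff q = 0.907). These 4 genes were not called, and their log2 folds lay between -0.33 and 0.30.

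Snhg9, the host of Snora78, had the highest log2 fold of the 11 and was not called. It stood at 5.67 and 11.9 FPKM in the authors' deposited table (log2 fold 1.06, unadjusted p = 0.331, Cuffdiff q = 0.707). Its annotated spliced RNA is 183 nt long, the shortest of the 9 hosts found in GENCODE, which range up to 781 nt. Of its exon bases, 7.65% overlap exons of Rps2 on the other strand, a ribosomal protein gene at 1212 and 1241 FPKM in the authors' deposited table. Whether counting used strand is not given in the sources used here, and without it the overlap holds reads of both genes.

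**Figure D2:**
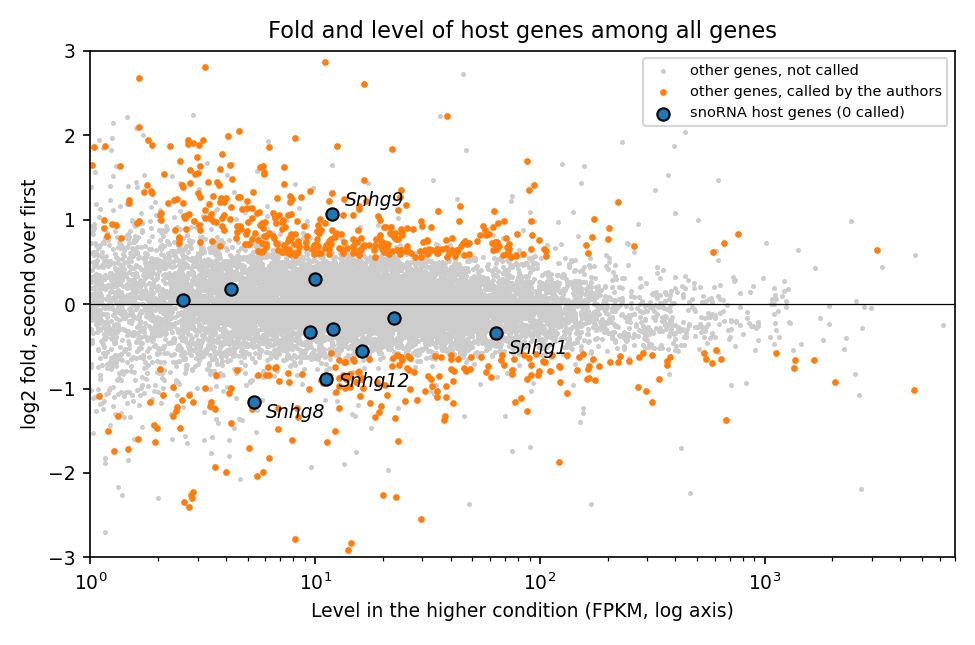
Authors' log2 fold (second over first condition) against the FPKM in the higher condition (log axis) for 11722 single-symbol rows at a level of at least 1, of which 3 lie beyond the axes. Blue points are the 11 host genes and orange points the genes called by the authors; Snhg8, Snhg12 and Snhg9 lie at folds where other genes of similar level were called.

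Folds as large as those of Snhg8, Snhg12 and Snhg9 were usually called in other genes of similar level. Within 2-fold of Snhg8's FPKM in its higher condition, 103 of 3479 rows had at least its absolute log2 fold, and 71 of these were called. For Snhg12 the called share was 93 of 126, and for Snhg9 it was 48 of 68. The test statistic shows 1 way in which the hosts differ from such rows. Dividing the log2 fold by Cuffdiff's statistic gives the fold behind each unit of the statistic, so a larger ratio means a smaller statistic for a given fold. Cuffdiff's p-value does not follow from this statistic alone. Snora78, at a statistic of -1.32, had a Cuffdiff p of 0.318, and Klf9, at -1.23, one of 0.043. The ratio had a median of 0.63 in the hosts and 0.35 in all single-symbol rows, as computed from the authors' deposited table. It was above the median of rows at a similar level in 10 of the 11 hosts, and Gas5, at 0.321 against 0.324, was the exception. Snhg9 had the highest ratio, 1.82, and 98.9% of rows at its level had a smaller one.

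**Figure D3:**
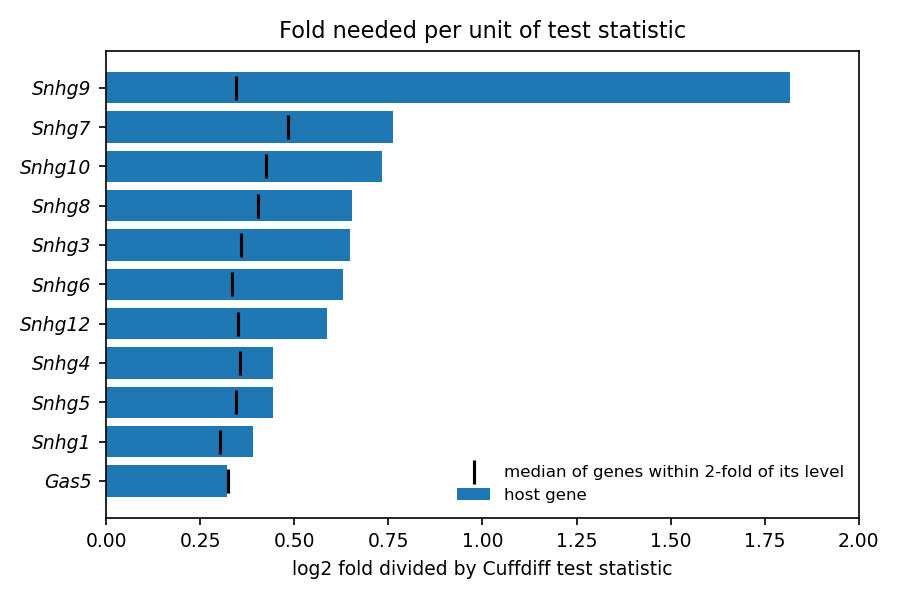
Log2 fold divided by the Cuffdiff statistic for each host gene (bars), beside the median of all single-symbol rows within 2-fold of its FPKM (vertical marks). The bar passes the mark in 10 of 11 hosts, and Snhg9 reaches 1.82.

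Other rows as short as the hosts had a similar ratio and a similar median fold. In the range of level and spliced length that the hosts span, 183 to 781 nt, the table held 174 other rows with a GENCODE length. Their median ratio was 0.59, close to the 0.63 of the hosts. Their median log2 fold was -0.27, with 74.7% negative. In the 9 hosts with a length the median was -0.33, with 77.8% negative. Of these 174 rows, 1 was called higher (0.575%) and 7 lower (4.02%), 4.6% in all. Once a smoothed trend of the log2 fold with length was taken off, the median of these 9 hosts was -0.037. Gas5 went from -0.16 to 0.18, Snhg1 from -0.34 to -0.037, Snhg3 from -0.33 to -0.011 and Snhg5 from -0.30 to -0.056. Snhg6 then stood at -0.21, Snhg8 at -0.81, Snhg12 at -0.58, Snhg10 at 0.52 and Snhg9 at 1.34. These values have no test of their own. What part length had in the folds was not tested.

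Hosts outside the rule gave values of the same kind. Rows under older symbols name 6 further single genes, and 0 were called by Cuffdiff or had an unadjusted p under 0.05. Zfas1, as 1500012F01Rik, stood at 32.6 and 21.2 FPKM in the authors' deposited table (log2 fold -0.62, Cuffdiff q = 0.592). Epb41l4aos, as 2410004N09Rik, stood at 18.6 and 14.8 FPKM in the authors' deposited table. Snhg15, Snhg17 and Snhg20 had negative log2 folds between -0.45 and -0.0033 in the authors' deposited table, and Snhg14, which runs antisense to Ube3a, had 0.28. With these rows, 12 of 17 hosts had a negative log2 fold, with a median of -0.30. A row that joins Dancr with Snora26 stood at 15.0 and 63.1 FPKM, and one that joins Snhg16, as 1810032O08Rik, with Snord1a at 291 and 99.4, in the authors' deposited table. Neither was called, with Cuffdiff q-values of 0.658 and 0.707, and in neither can host and snoRNA be told apart.

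Few of the snoRNAs inside these hosts have values in the poly(A) libraries. Of the 31 small RNAs within the hosts, 5 have a row of their own. Snord99, inside Snhg12, stood at 2613 and 1235 FPKM in the authors' deposited table (log2 fold -1.08, Cuffdiff q = 0.899). Snora78, inside Snhg9, went from 17.8 to 6.42 FPKM in the authors' deposited table, opposite in sign to its host, with a Cuffdiff q of 0.694. Snord47, inside Gas5, stood at 390 and 604 FPKM in the authors' deposited table (Cuffdiff q = 0.953). Snord22 and Snora17 differed by less than 0.1 on the log2 scale. Of all 46 rows named for a snoRNA or a Cajal body RNA, 0 were called by Cuffdiff and 1 had an unadjusted p under 0.05. The ratio of log2 fold to statistic had a median of 2.34 in these rows, against 0.35 in all. Their median annotated length was 86 nt. FPKM divides by length, so the levels of such short rows cannot be read as abundance beside their hosts.

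Among protein-coding hosts, most ribosomal protein genes had a negative log2 fold. By annotation, 216 protein-coding genes of the table hold a snoRNA gene in an intron. With the noncoding hosts there are 235, of which 76 hold a snoRNA with a Snord, Snora or Scarna symbol. The others hold only snoRNA genes under other symbols, such as Gm with a number. Of the 216, 7 rose and 4 fell, 5.09% in all, near the 5% of all rows. The 28 ribosomal protein genes among them had a median log2 fold of -0.24, and 17.9% were called. Of these 28, 24 were negative (85.7%, against 49.6% of all rows). Rps20 fell from 1656 to 1044 FPKM, Rpl30 from 549 to 350.1, Rpl27a from 131 to 86.3 and Rps3a1 from 609 to 416, in the authors' deposited table. Rpl12 rose from 2015 to 3143 FPKM in the authors' deposited table. The 52 ribosomal protein genes that hold no annotated snoRNA had a median of -0.30, and 48 of them were negative. Of these 52, 13.5% were called, 1 higher and 6 lower. The median transcript length was 1076.5 nt in the 28 and 839 nt in the 52, against 3161 nt over all rows. The difference between the 2 groups was not tested, nor was the part that length had in their folds. In the other 188 coding hosts, 6 rose and 0 fell by Cuffdiff, with 7 lower at an unadjusted p under 0.05, and the median was 0.062. The called share was 3.19%, against 3.16% called higher and 1.84% called lower over all rows, so these 6 are near the background. They were Etl4, Trrap, Gsr, Pole, Frmd4b and Mgat5, each the host only of snoRNA genes with a Gm symbol. Trrap, a scaffold of histone acetyltransferases, rose from 11.6 to 19.6 FPKM in the authors' deposited table, and Etl4 from 1.49 to 3.38. Pole, the catalytic subunit of a replicative DNA polymerase, rose from 9.18 to 14.8 FPKM in the authors' deposited table, Gsr, the glutathione reductase gene, from 27.5 to 44.4, Frmd4b from 5.72 to 9.14 and Mgat5 from 14.1 to 21.9.

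**Figure D4:**
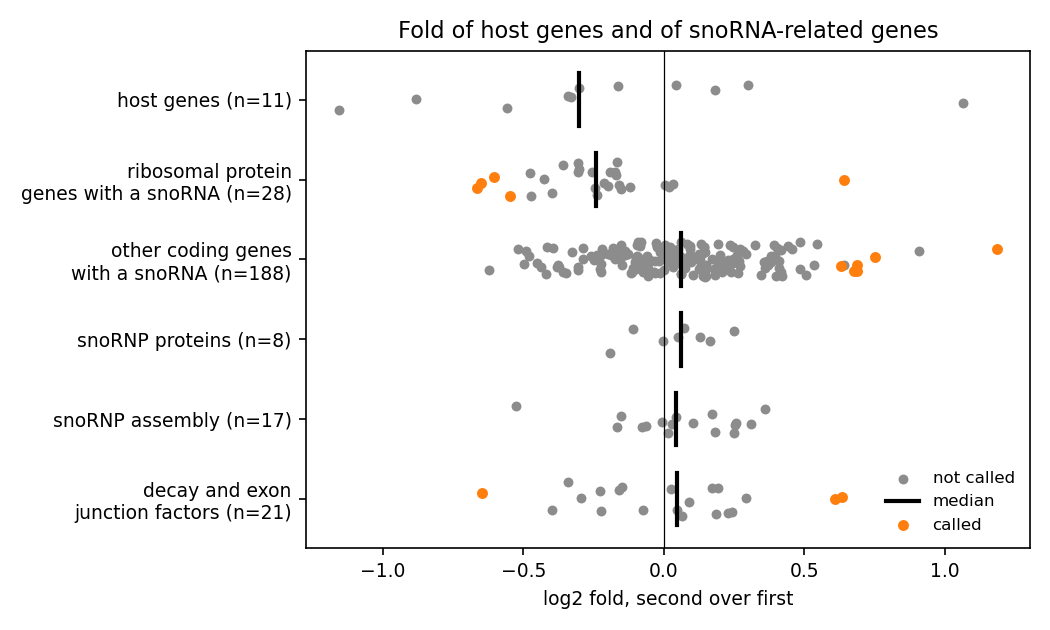
Authors' log2 fold (second over first condition) of the 11 host genes, of protein-coding genes with an intronic snoRNA and of 3 lists of snoRNA-related genes. Points are genes (orange where called, spread vertically at random within a row) and black bars are medians; the medians are -0.30 for the hosts, -0.24 for ribosomal protein genes with a snoRNA and between 0.045 and 0.062 for the other 4 groups.

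Among the listed proteins that bind and mature snoRNAs, 0 of 8 and 0 of 17 were called, near the background of 5%. Of 8 core snoRNP proteins in the table, such as the methyltransferase fibrillarin (Fbl) and the pseudouridine synthase dyskerin (Dkc1), 0 were called by Cuffdiff and 0 had an unadjusted p under 0.05. Their log2 folds ranged from -0.19 for Nhp2l1, a protein of box C/D particles, to 0.25 for Nhp2, its counterpart in box H/ACA particles. Fbl stood at 144 and 149 FPKM in the authors' deposited table. Among 17 assembly and maturation factors 0 were called by Cuffdiff, and 1, Fcf1, had an unadjusted p under 0.05. Fcf1, a factor of early ribosomal RNA processing, stood at 38.0 and 26.4 FPKM in the authors' deposited table (Cuffdiff q = 0.21). Nolc1, a chaperone that shuttles snoRNPs between nucleolus and Cajal body, stood at 21.3 and 27.3 in the authors' deposited table (Cuffdiff q = 0.324).

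Factors of nonsense-mediated decay included calls in both directions. Of 21 factors of decay and of the exon junction complex, 2 rose and 1 fell (14.3%, against 5% of all rows), and the median log2 fold was 0.049. Smg1, the kinase that acts on the decay helicase Upf1, rose from 4.70 to 7.30 FPKM in the authors' deposited table (Cuffdiff q = 0.0174). Nbas, which is needed for the decay of many targets, rose from 8.70 to 13.3 FPKM in the authors' deposited table (Cuffdiff q = 0.028). Pnrc2, an adaptor between Upf1 and decapping, fell from 76.6 to 48.9 FPKM in the authors' deposited table (Cuffdiff q = 0.0174). Upf1, at 19.2 and 22.7 FPKM in the authors' deposited table, was not called. Of 6 protein-coding transcripts known as decay targets, 0 were called by Cuffdiff, against 5% of all rows. In log2 fold 5 were negative, against 49.6% of all rows, and 1 of these 5 had an unadjusted Cuffdiff p under 0.05. Gadd45b, also 1 of the 5, stood at only 0.713 and 0.535 FPKM. Chac1, an enzyme of glutathione breakdown, was 1.99-fold lower in the authors' deposited table, with an unadjusted p of 0.00765 and a Cuffdiff q of 0.111, and Gadd45a, a growth arrest gene, was 1.56-fold lower with a q of 0.451.

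Gas5 RNA is known to bind the glucocorticoid receptor, and the receptor gene and listed targets of the receptor were also near the background of calls. Of 8 genes, the receptor gene Nr3c1 among them, 0 were called by Cuffdiff, against 5% of all rows. Klf9 had an unadjusted p under 0.05 and was lower, as were 7.57% of all rows. Nr3c1 stood at 13.97 and 14.1 FPKM in the authors' deposited table. Klf9, a transcription factor induced by glucocorticoids, stood at 16.2 and 12.3 FPKM in the authors' deposited table (Cuffdiff q = 0.287). Fkbp5, a chaperone that holds the receptor back, had 12.8 and 15.8 FPKM in the authors' deposited table (Cuffdiff q = 0.459). From a list of 25 long noncoding RNAs without snoRNAs, 9 have a row. Of these 9, 2 rose and 1 fell (33.3%, against 5% of all rows). Malat1, an abundant nuclear RNA, rose from 117 to 201 FPKM in the authors' deposited table, Xist, the RNA of X inactivation, rose from 0.772 to 2.50, and Miat fell from 2.34 to 1.19. Over all 356 rows of long noncoding genes by annotation, 2.81% were called, 0.843% higher and 1.97% lower.

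Few neighbours were found to share a promoter region with the hosts. The search covered the 9 hosts found in GENCODE, without Snhg4 and Snhg7, and left out starts that lie past the host's own start. Within 1 kb upstream of a host, on the other strand, GENCODE places the start of Slc3a2 beside Snhg1 and of Glrx5 beside Snhg10. Slc3a2, the heavy chain of amino acid transporters, stood at 76.1 and 74.1 FPKM in the authors' deposited table, and Glrx5, a mitochondrial iron-sulfur protein gene, at 43.81 and 43.76. Neither was called, with Cuffdiff q-values of 0.955 and 0.997.

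Sox4, the targeted gene, stood at 127 and 83.9 FPKM in the authors' deposited table (Cuffdiff q = 0.0543), and was not called. Of 10 neural stem cell markers, 9 have a row, with Fabp7, Vim and Slc1a3 the highest, and Nes and Sox1 rose while Fabp7 fell from 4620 to 2286 FPKM in the authors' deposited table. Of 5 neuronal markers, 4 have a row, with a summed level of 9.17 and 7.36 FPKM in the 2 conditions of the authors' deposited table. Among them Tubb3 alone was lower, at 6.75 and 3.90 FPKM. Syt1, Snap25 and Rbfox3 had positive log2 folds of 0.21, 0.76 and 0.70, and none of these neuronal markers was called. All 4 astrocyte markers have a row, with a summed level of 65.8 and 24.9 FPKM, and 3 of them fell while Aldh1l1 rose. Of 11 markers of microglia and blood, fibroblasts and endothelium, 0 have a row here. What part a change in glial cells had in the values of the host genes was not tested.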

How the data were processed

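Poly(A) RNA was sequenced in 6 libraries (SOLiD kit, per the labels' protocols). In the submitters' processing notes stand the build mm10, Cuffdiff with no version, Cufflinks 2.2.1 and TopHat2 2.0.9. The sources used here do not give annotation, strand setting or whether hairpins were pooled. The labels name 2 hairpins against Sox4, whereas the series' design text speaks of 1. The authors deposited 1 table of 12316 rows with, per the file headers, 2 levels (taken as FPKM), their log2 fold, a test statistic (a score), a p-value and a q-value; 82 rows name several genes and were left out. The design text calls the passages biological duplicates, but separate cultures are not stated, and the spread behind the p-values may be technical.

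No model could be fitted, so the authors' flag is the call. Symbols were matched to GENCODE M21 (GRCm38), 11693 as written and 462 by an older name. Noncoding genes took the length of the transcript with the most exons, and snoRNAs inside introns were counted on the gene's strand, ignoring retained-intron models. The length trend was a lowess fit (span 0.3, statsmodels 0.14.6) over 11659 rows; the trend and the q recomputation were checked on simulated data. Python 3.11.15, pandas 2.3.3, numpy 2.4.6 and matplotlib 3.10.9 were used. The members and lists were chosen with earlier results of these data known. The text names every member, the called genes of each list or else the 2 with the largest fold, and all divergent genes in the table; others given as examples were added after their values were seen. Values of the oligodendrocyte lineage markers are not reported here.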

Additional observations from a re-analysis of the deposited data

How the results depend on the processing

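The count of 0 called hosts stayed at 0 at a q of 0.01, with a fold limit, at a level of at least 5, with q recomputed over rows at a level of at least 1 (lowest q 0.0933) and with rows under older symbols; stricter thresholds could not raise it. Only the recomputed q tests the single hosts again, and it called 0 of 11. Pseudocounts and centring could not change a sign here. With the length trend taken off, Gas5 took the other sign, 0.18. Snhg1, Snhg3, Snhg5, Snhg6, Snhg10 and Snhg12 moved by over 1.5 times, to -0.037, -0.011, -0.056, -0.21, 0.52 and -0.58. The median log2 fold of -0.30 became -0.037 with the length trend taken off (9 hosts) and -0.16 without hosts under 500 nt, which keeps Snhg4 and Snhg7, whose length is unknown. Over the 5 hosts with an annotated length of at least 500 nt it was -0.30. Pseudocounts, centring by 0.0018 and a level of at least 5 kept it within 1.5 times. Annotated hosts called, 11 in all with the noncoding hosts, 7 higher and 4 lower, became 4 at a q of 0.01, all higher, and 1, higher, where the log2 fold also had to reach 1 in size, since fewer genes can pass. They became 3, 1 higher and 2 lower, when only hosts of snoRNAs with a Snord, Snora or Scarna symbol were counted. A run of at least 7 pyrimidines near the start was found in 3 hosts, Snhg1, Snhg8 and Snhg12, in place of 2, Snhg7 and Snhg8. The share for this run was 7.33% in genes of the table with a window and 30% in ribosomal protein genes. Rows under older symbols, the named-snoRNA hosts and both 500 nt limits were chosen after seeing the data. No paired analysis was possible because the only table used here gives a single level for each condition. The passage numbers would otherwise allow one, and leaving out each replicate was not run for the same reason. The depth is unknown.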
